A study of Homo sapiens with 6 samples.

Results

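The NRF2 antioxidant target genes are a set of 9 human genes for redox and glutathione enzymes and a growth regulator, namely NQO1, HMOX1, GCLC, GCLM, TXNRD1, SRXN1, PGD, GSR and OSGIN1. They were chosen by name, as rows of a deposited RNA-seq table whose Ensembl identifier carries one of these symbols, and the rule itself uses no measured value. Of the 9 genes, 6 had a row of their own among the 59192 features of the table. GCLC, SRXN1 and OSGIN1 had none, so no value is given for them. This does not mean that they are not expressed. The table also holds 33265 loci from an assembler that carry no gene name, and whether these hold their reads was not tested. In the GENCODE 29 annotation each of these 3 genes overlaps another gene on the same strand that also has no row of its own, AL033397.1 for GCLC, AL121758.1 for SRXN1 and AC009119.2 for OSGIN1.

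The table compares HPSE-knockdown SW480 cells, labelled SW480-45, with SW480-NC control cells, in 3 libraries each. SW480 is a line from a human colorectal adenocarcinoma, and HPSE encodes heparanase, the enzyme that cuts heparan sulfate chains. According to the study's methods, both lines stably express Cas9 after lentiviral infection and puromycin selection, and both carry a second lentivirus with EGFP and a guide RNA, against HPSE in one line and a control guide in the other. The paper's results name SW480-KD1 as the sequenced knockdown line, which is taken here to be SW480-45. A second line with another HPSE guide, SW480-KD2, is then not among the libraries. The methods do not say whether a line is a pool or 1 clone. Each group is a single line, so an effect of the knockdown cannot be told apart from another difference between the lines. The libraries of a group came from independent experiments.

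NRF2, encoded by NFE2L2, is a transcription factor that KEAP1 hands to a CUL3 ubiquitin ligase for degradation as long as the cell is unstressed. Oxidants and electrophiles modify KEAP1, NRF2 accumulates, pairs with a small MAF protein and binds antioxidant response elements in the promoters and enhancers of its targets. The targets reduce quinones, break down heme, make and recycle glutathione and thioredoxin, and supply the NADPH for these reactions. In colorectal and other cancers this program is known for protecting tumor cells against oxidative stress and drugs.

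The core of the antioxidant response element is written TGACNNNGC, where N is any base. RefSeq promoter sequences (GRCh38.p14) were at hand for 7 of the 9 genes, in 8 windows, because TXNRD1 has 2 annotated starts. HMOX1 and GSR had no window here. In the 250 bases before the start, read on both strands, the core was found in 4 of the 8 windows (50%), against 3830 of 35116 windows of all genes (10.9%). Both TXNRD1 windows are among the 4, so by gene it was 3 of 7 (42.9%), against 13.2% of all genes with a window. The share by gene was 35.7% for the glutathione and cysteine enzymes listed below, 30% for NRF2 regulators and 28.6% for other NRF2 targets. It was 10% to 16.7% for the remaining lists of enzymes. The matches are shown because this element is the one through which the set is known to be controlled. Each is printed 5′ to 3′ with 10 bases on either side and the core in capitals.
TXNRD1, first start, chr12:104215670-104215698, plus strand: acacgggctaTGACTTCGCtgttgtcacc
TXNRD1, second start, chr12:104286920-104286948, minus strand: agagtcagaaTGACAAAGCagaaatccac
GCLM, chr1:93909446-93909474, plus strand: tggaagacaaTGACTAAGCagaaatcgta
PGD, chr1:10398853-10398881, minus strand: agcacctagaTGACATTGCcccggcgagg
In GENCODE 29 the first TXNRD1 match lies upstream of the gene, the second in an exon outside the coding sequence, the GCLM match at the edge of the first exon outside the coding sequence, and the PGD match in an intron of a longer transcript. None of the 4 holds the AP-1 heptamer TGACTCA, which can overlap this core. The windows of NQO1, GCLC, OSGIN1 and SRXN1 held no match. A match is a description of these letters and was not tested for binding, and elements farther from the start were not searched.

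The depth was similar in all libraries, from 33221323 to 39802365 reads on the features. In the SW480-45 libraries HPSE itself had 136, 172 and 146 normalized counts, against 270, 295 and 246 in SW480-NC, so that the groups did not overlap. Its log2 fold change was −0.83 ± 0.14 (SE, limma adjusted p = 0.0547). These values are mRNA, whereas the paper judged the knockdown by western blot of the HPSE protein. Normalized counts are reads scaled by the authors with a size factor for each library. Fold changes are differences of log2(normalized count + 1), positive when higher in SW480-45. limma was run on the 21703 features averaging 10 normalized counts or more, with Benjamini-Hochberg adjustment over all of them. The 7 colon epithelial markers with a row had a summed level of 111278 to 119777 normalized counts in SW480-45 and 128944 to 136560 in SW480-NC, most of it KRT8. CDX2, a transcription factor of the intestine, had only 19.0 to 40.3 normalized counts, and CDH17 was at 0 in 5 of the 6 libraries. KRT20, a keratin of differentiated colon epithelium, was the only one of the 6 markers tested that passed, with a log2 fold change of −0.81 (limma adjusted p = 0.00719). Markers of immune, endothelial, fibroblast and liver cells, 8 of 12 with a row, summed to 323 to 416 normalized counts in SW480-45 and 247 to 283 in SW480-NC, most of it COL1A1. COL1A2, CDH5 and ALB were each at 0 in 5 of the 6 libraries. The part of these markers in the results below was not tested.

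None of the 6 measured NRF2 target genes passed the adjusted threshold of 0.05 between SW480-45 and SW480-NC, while 174 of the 21703 features tested did (0.802%). None passed it with a change of at least 2-fold either, against 0.24% of all features. At an unadjusted p under 0.05 there were 2 of the 6, against 16.2% of all features and 21.1% of those averaging 200 normalized counts or more, as all 6 do. These were HMOX1, which was higher in SW480-45, and GCLM, which was lower. The groups did not overlap for 1 gene, HMOX1, against 23.4% of all features. Of the 6 genes 4 had a positive and 2 a negative log2 fold change, and the median was 0.08, compared with −0.00 over all features tested. edgeR on the recovered reads called 0 of the 6 at an adjusted p under 0.05 (0.627% of all features) and 2 at an unadjusted p (15.9%). DESeq2 called 0 (3.48%) and 1 (13.6%). All 6 passed the filter on low values. The 95% confidence intervals of all 6 stayed within 2-fold, from 0.721 for the lower bound of GCLM to 1.71 for the upper bound of HMOX1. In bulk RNA, fewer cells of a type and less RNA per cell cannot be told apart. With 3 libraries against 3, an exact permutation test of a single gene cannot go below p = 0.1.

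**Figure D1:**
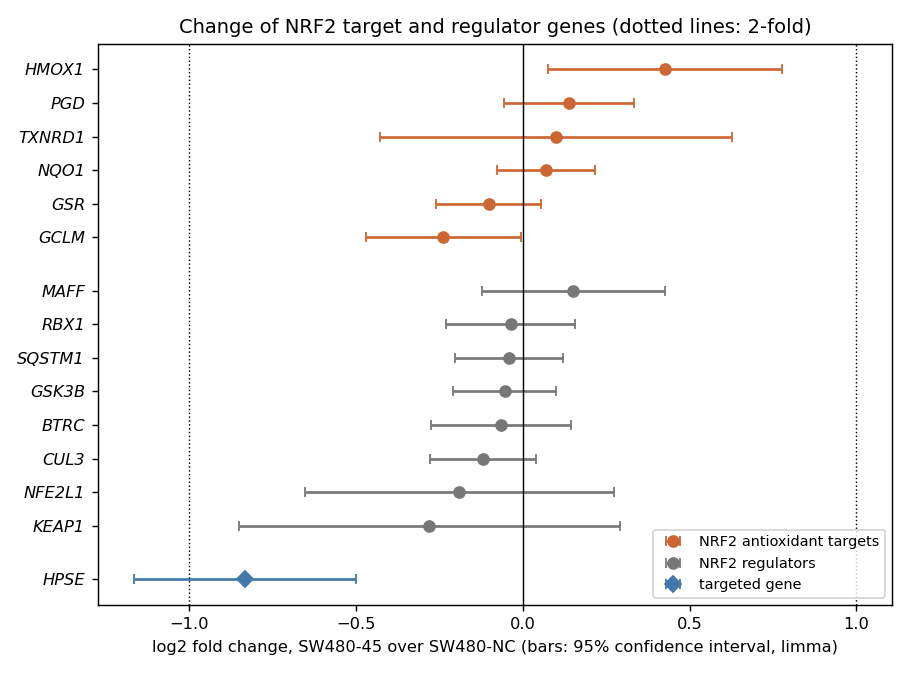
Log2 fold change of SW480-45 over SW480-NC with its 95% confidence interval from limma, for the 6 measured NRF2 target genes, the 8 measured regulators and HPSE, with dotted lines at 2-fold. The targets run from −0.24 for GCLM to 0.43 for HMOX1, and only these 2 intervals among the targets leave out 0.

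HMOX1 (ENSG00000100292, chromosome 22, 35380361 to 35394214, plus strand, GRCh38) encodes heme oxygenase 1, which cleaves heme to biliverdin, iron and carbon monoxide. SW480-45 had 342, 324 and 243 normalized counts of it, and SW480-NC had 223, 221 and 225. All 3 SW480-45 libraries lay above the SW480-NC libraries, but replicate 3 lay much closer to them than the other two. The means were 303 ± 52.6 (SD, n = 3) and 223 ± 1.82 (SD, n = 3), a ratio of 1.36. The log2 fold change was 0.43 ± 0.15 (SE, limma adjusted p = 0.235), with a 95% confidence interval of 0.07 to 0.78. The SW480-NC counts rested on 213, 229 and 212 reads, for which counting error alone gives a spread of 6.77%, while the observed coefficient of variation of these libraries was 0.814%. Without SW480-45 replicate 3 the log2 fold change was 0.58, and with each library left out in turn it stayed between 0.33 and 0.58, with an adjusted p between 0.127 and 0.478.

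NQO1 (ENSG00000181019, chromosome 16, 69706996 to 69726951, minus strand) encodes the quinone reductase that is the usual marker of NRF2 activity. It had 7877, 7990 and 7939 normalized counts in SW480-45 and 7112, 7646 and 7947 in SW480-NC. The SW480-45 libraries lay close together around the highest SW480-NC library, and the groups overlapped. The means were 7935 ± 56.8 (SD, n = 3) and 7568 ± 423 (SD, n = 3). The log2 fold change was 0.07 ± 0.06 (SE, limma adjusted p = 0.626), with a 95% confidence interval from 0.948-fold to 1.16-fold. On the log2 scale NQO1 had the narrowest interval of the 6 genes. The antisense gene AC092115.2, annotated within NQO1, had 27.1 to 48.8 normalized counts, and strand was not stated for the counting.

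GCLM (ENSG00000023909, chromosome 1, 93885205 to 93909456, minus strand) encodes the modifier subunit of glutamate-cysteine ligase, the first enzyme of glutathione synthesis. Its catalytic partner GCLC has no row, so only one subunit of the enzyme was measured. GCLM had 1815, 1886 and 1762 normalized counts in SW480-45 and 2371, 2218 and 1880 in SW480-NC. The groups met at a single point, where the highest SW480-45 library lay just above the lowest SW480-NC library. The means were 1821 ± 62.2 (SD, n = 3) and 2157 ± 251 (SD, n = 3), a ratio of 0.844. The log2 fold change was −0.24 ± 0.10 (SE, limma adjusted p = 0.299). Leaving out single libraries moved it between −0.33 and −0.17, with the adjusted p from 0.134 to 0.535.

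GSR (ENSG00000104687, chromosome 8, 30678061 to 30727999, minus strand) encodes glutathione reductase, which returns oxidized glutathione to its reduced form with NADPH. In SW480-45 it had 8621, 8701 and 8571 normalized counts, and in SW480-NC 8663, 9979 and 9203. The SW480-45 libraries stood close together near the lowest SW480-NC library, which they overlapped. Its log2 fold change was −0.10 ± 0.07 (SE, limma adjusted p = 0.495), with a 95% confidence interval from 0.836-fold to 1.04-fold. HMOX1 and GCLM thus had opposite signs, and the glutathione genes GCLM and GSR both had a negative sign without passing the test.

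TXNRD1 (ENSG00000198431, chromosome 12, 104215779 to 104350305, plus strand) encodes cytosolic thioredoxin reductase, the selenoenzyme that keeps thioredoxin reduced. It had 19759, 18925 and 20740 normalized counts in SW480-45 and 12125, 23124 and 22460 in SW480-NC. Replicate 1 of SW480-NC held 0.532 times the mean of the other two SW480-NC libraries and lay below every other library. The means were 19808 ± 909 (SD, n = 3) and 19236 ± 6167 (SD, n = 3), and the log2 fold change was 0.10 ± 0.23 (SE, limma adjusted p = 0.862). Without SW480-NC replicate 1 the sign turned, to −0.20 (limma adjusted p = 0.290), and the median of the 6 genes turned with it, to −0.063. The direction of TXNRD1 was therefore set by 1 library. EID3, which lies within TXNRD1 on the same strand, had 15.4 to 58.4 normalized counts and RPL18AP3, a pseudogene there, 2244 to 2572, and neither was as low in that library relative to the others.

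PGD (ENSG00000142657, chromosome 1, 10398592 to 10420144, plus strand) encodes 6-phosphogluconate dehydrogenase, a source of NADPH in the pentose phosphate pathway. It had 8447, 9046 and 7939 normalized counts in SW480-45 and 7219, 7428 and 8477 in SW480-NC. Replicate 3 was the lowest library of SW480-45 and the highest of SW480-NC, and the groups overlapped. The log2 fold change was 0.14 ± 0.08 (SE, limma adjusted p = 0.456), with a 95% confidence interval from 0.962-fold to 1.26-fold.

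**Figure D2:**
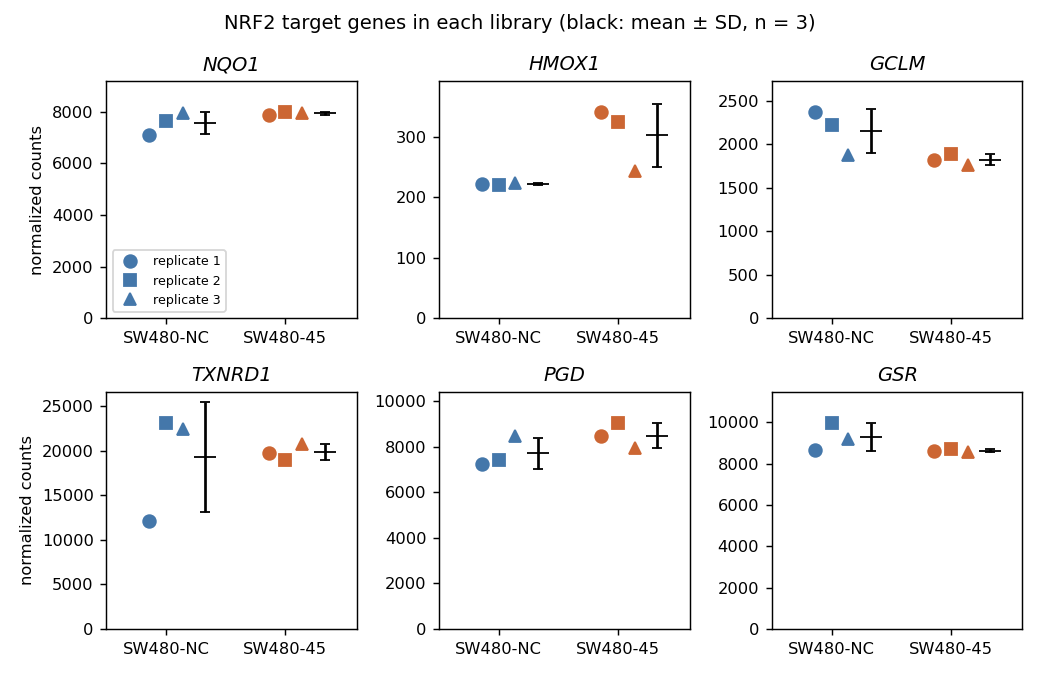
Normalized counts of the 6 measured NRF2 target genes in each library, with the replicate given by the symbol and the mean ± SD of each group in black, on axes that start at 0. HMOX1 is the 1 gene whose groups do not overlap, and TXNRD1 shows SW480-NC replicate 1 at 12125, far below the other 5 libraries.

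To compare levels between genes, normalized counts were divided by the exonic length of each gene in GENCODE 29, in kilobases. In SW480-NC, TXNRD1 had 2868 ± 919 (SD, n = 3) normalized counts per kilobase, PGD 2599 ± 227, GSR 2469 ± 176 and NQO1 2326 ± 130. The libraries of each neighbouring pair in this order overlapped. GCLM followed at 398 ± 46.4 and HMOX1 at 92.7 ± 0.755 normalized counts per kilobase, and both stood apart from the gene above them. In SW480-45 the order was TXNRD1, PGD, NQO1, GSR, GCLM and HMOX1, with 2953, 2858, 2439, 2295, 336 and 126 normalized counts per kilobase. There only TXNRD1 and PGD overlapped, so that the order of NQO1 and GSR was opposite in the 2 groups but was separated only in SW480-45. The exonic length counts every annotated exon, which lowers the level of genes with many alternative exons such as TXNRD1.

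The profiles of the 6 genes across the libraries were then compared. Each gene's log2 values were centred on their own mean over the 6 libraries and pairs of genes were compared by the root mean square difference. NQO1 and PGD were the most alike, at 0.07, followed by NQO1 and GSR at 0.10. The largest differences were between GCLM and TXNRD1, at 0.42, and HMOX1 and TXNRD1, at 0.39. HMOX1, the member with the smallest p, was compared in the same way with 9379 named genes averaging 50 normalized counts or more. Its nearest profiles were those of ZNF428 at 0.04, YBX1P10 at 0.06 and SLC16A13 at 0.06. ZNF428 had 569, 548 and 432 normalized counts in SW480-45 and 395, 375 and 394 in SW480-NC, with the same lower value in SW480-45 replicate 3. None of these 3 genes passed the adjusted threshold in limma, with the lowest adjusted p of 0.200 for ZNF428 and the highest of 0.312 for YBX1P10. With 6 libraries, profiles this near are a description of the counts.

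Several genes of this system had 1 or more libraries far from the rest of their group, while the libraries themselves deviated alike, with a median absolute log2 deviation of 0.17 to 0.21 over all features. KEAP1 had 1965, 1910 and 1082 normalized counts in SW480-45 and 2116, 2231 and 1541 in SW480-NC, lowest in replicate 3 of both groups. GPX1, the cytosolic glutathione peroxidase, had 921, 3923 and 676 normalized counts in SW480-45 and 3419, 4335 and 653 in SW480-NC, so that libraries of both groups fell into a high and a low range. NFE2L1, FTH1 and TXN2 were picked for the plot after their values were seen. NFE2L1 was low in SW480-45 replicate 3, at 5050 normalized counts against 7944 and 8972. FTH1, the ferritin heavy chain, was low in SW480-45 replicate 3 and in SW480-NC replicate 2, at 26808 and 24910 normalized counts. TXN2, the mitochondrial thioredoxin, was at 602 in SW480-NC replicate 2 against 1134 and 1235.

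**Figure D3:**
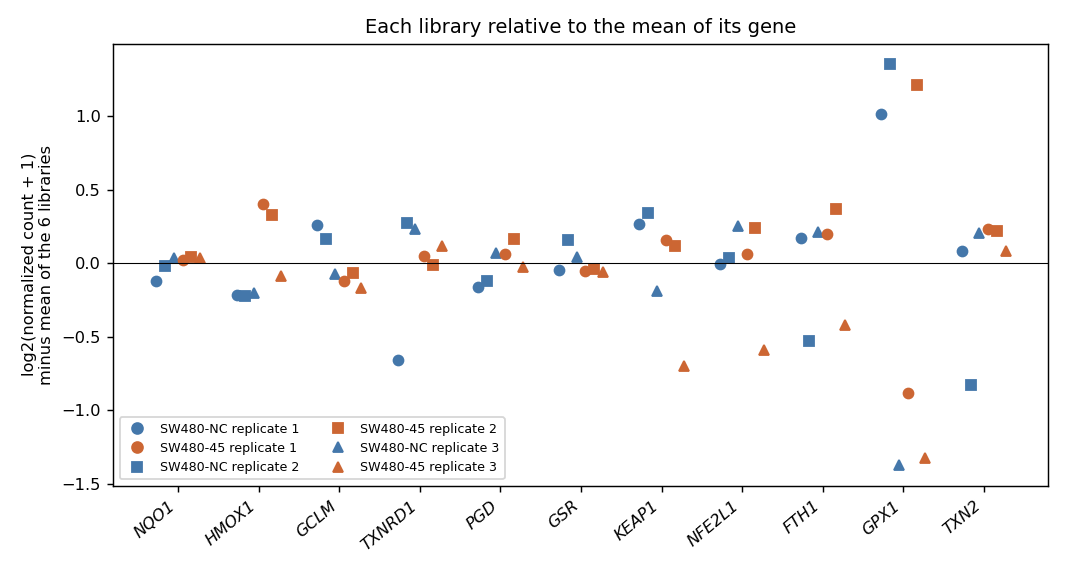
Log2(normalized count + 1) of each library minus the mean of the 6 libraries, for the 6 measured NRF2 target genes and KEAP1, NFE2L1, FTH1, GPX1 and TXN2, with the group given by the color and the replicate by the symbol. NQO1 and GSR stay near 0 in every library, whereas TXNRD1, KEAP1 and GPX1 have libraries far below the others.

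The regulators of NRF2 were examined next. NFE2L2, the gene of NRF2 itself, had no row of its own, like BACH1, MAFG and MAFK, and 8 of the 12 listed regulators were measured. A missing row does not mean a lack of expression here either. Of the 8, 0 passed at an adjusted p under 0.05 in limma (0.802% of all features) and 0 at an unadjusted p under 0.05 (16.2%). By sign, 7 were negative and 1 was positive, with a median log2 fold change of −0.06. KEAP1, the inhibitor, had the most negative value, −0.28 ± 0.25 (SE, limma adjusted p = 0.617). Without SW480-45 replicate 3 the log2 fold change of KEAP1 was 0.00. MAFF, a small MAF partner, had the most positive, 0.15 ± 0.12 (SE, limma adjusted p = 0.571), with 681, 688 and 675 normalized counts in SW480-45 inside the range of 537 to 708 in SW480-NC.

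Of 30 other genes known as NRF2 targets, 26 had a row and 23 were tested. None passed the adjusted threshold in limma, and 8 had an unadjusted p under 0.05. Signs were positive for 3 (8.1% of all features, 8.9% of those averaging 200 normalized counts or more) and negative for 5 (8.15% and 12.2%). The median log2 fold change was 0.01, with 12 positive and 11 negative. PIR, an iron-binding nuclear protein, had the most positive value, 0.51 ± 0.13 (SE, limma adjusted p = 0.134), with 439, 328 and 371 normalized counts in SW480-45 and 260, 263 and 267 in SW480-NC. The groups of PIR did not overlap. AKR1C2, an aldo-keto reductase, had the most negative, −0.43 ± 0.23 (SE, limma adjusted p = 0.408), at 41.5 to 71.7 normalized counts in SW480-45 and 73.2 to 80.5 in SW480-NC. Its near-identical paralogs may share reads with it. DESeq2 called 2 of the 23 at an adjusted p under 0.05 (3.48% of all features), and edgeR called 0 (0.627%).

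Among the other enzymes of glutathione and cysteine, 14 of 17 had a row and 13 were tested. None passed the adjusted threshold in limma. At an unadjusted p under 0.05, 4 had a positive sign and 1 a negative, against 8.1% and 8.15% of all features. Of features averaging 200 normalized counts or more, the shares were 8.9% and 12.2%. The median of the 13 genes was 0.08. CTH, cystathionine gamma-lyase, which makes cysteine for glutathione, had the smallest adjusted p. It had 587, 504 and 597 normalized counts in SW480-45 and 373, 301 and 351 in SW480-NC, and the groups lay well apart. Its log2 fold change was 0.72 ± 0.13 (SE, limma adjusted p = 0.0580), and the adjusted p was 0.0387 over all features with any value, 0.0469 with a mean of at least 50, 0.0465 over Ensembl features only and 0.000465 in DESeq2. It did not pass in edgeR (0.0656), with quantile normalization (0.0650), without an intensity trend (0.141) or in any of the 6 fits with a library left out (0.0882 to 0.209). GPX1 had the most negative value, −0.66 ± 0.84 (SE, limma adjusted p = 0.737), with the 2 ranges described above. Leaving out single libraries moved it from −1.51 without SW480-NC replicate 3 to −0.15 without SW480-NC replicate 2, and each of the other 4 libraries also moved it by over 1.5 times.

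The thioredoxin and peroxide enzymes outside the usual NRF2 targets held the 1 tested gene of the NRF2, redox, pentose phosphate and heme lists that passed in limma. TXNIP, the thioredoxin-interacting protein that binds and inhibits thioredoxin, fell in SW480-45. It had 5429, 5515 and 5566 normalized counts in SW480-45 and 7597, 7722 and 8112 in SW480-NC, with the groups far apart. Its means were 5503 ± 69.1 (SD, n = 3) and 7810 ± 268 (SD, n = 3), a ratio of 0.705. The log2 fold change was −0.50 ± 0.06 (SE, limma adjusted p = 0.0168), short of 2-fold. The value held between −0.52 and −0.48 with each library left out, but the adjusted p ranged from 0.0397 to 0.0832 and passed in 1 of these 6 fits, without SW480-NC replicate 3. It was 0.126 without an intensity trend and 7.58e-06 in DESeq2. Of the 13 listed genes 12 were tested. SOD2 was left out, because its row (ENSG00000112096) was not matched to the symbol here. Of the 12, 1 passed, against 0.802% of all features and 1.3% of those averaging 200 normalized counts or more. The 12 had 6 positive and 6 negative signs and a median of 0.00. PRDX5, a peroxiredoxin, had the most positive value, 0.42 ± 0.09 (SE, limma adjusted p = 0.101), with 3114 to 3708 normalized counts in SW480-45 and 2431 to 2758 in SW480-NC.

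For the pentose phosphate pathway, which shares its NADPH output with PGD, 6 of 7 listed genes were tested and 0 passed, with 1 at an unadjusted p under 0.05, against 16.2% of all features, and a median of −0.00. PGLS, which acts just before PGD, had a log2 fold change of 0.16 (limma adjusted p = 0.550) and RPIA, the ribose 5-phosphate isomerase, −0.24 (limma adjusted p = 0.257). RPIA had 1440 to 1483 normalized counts in SW480-45 and 1610 to 1924 in SW480-NC, without overlap. For heme and iron handling, next to HMOX1, all 8 genes were tested, 0 passed the adjusted threshold and the median was 0.10. At an unadjusted p under 0.05, 2 were positive and 2 negative, against 8.1% and 8.15% of all features. The shares were 8.9% and 12.2% among features averaging 200 normalized counts or more. BLVRA, the biliverdin reductase that acts on the product of heme oxygenase, had 603, 639 and 623 normalized counts in SW480-45 and 482, 491 and 468 in SW480-NC. Its log2 fold change was 0.37 ± 0.09 (SE, limma adjusted p = 0.117). SLC40A1, the iron exporter ferroportin, had 1077, 1051 and 1113 against 1372, 1413 and 1452 normalized counts, a log2 fold change of −0.39 ± 0.08 (SE, limma adjusted p = 0.0814). Both genes separated the groups without passing in limma.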

How the data were processed

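RNA was extracted with Trizol, and libraries were made with a NEBNext kit and run on an Illumina HiSeq by the study. The submitters' processing notes name bcl2fastq, HISAT2, DESeq2 and GRCh38, and the paper names Cuffdiff. Annotation, assembler and strand setting are not given in the sources used here. The deposited signal values are normalized counts, reads scaled by the authors with a size factor for each library, for 25927 Ensembl features and 33265 assembler loci. All 6 columns were used. Dividing by the smallest step of each column gave whole reads for 100% of the values (tolerance 0.01 reads).

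Symbols were found for 19899 Ensembl identifiers. Log2(normalized count + 1) was tested with limma 3.58.1 in R 4.3.3 with an intensity trend, over features with a mean of at least 10, without a replicate term. edgeR 4.0.16 and DESeq2 1.42.0 ran on the recovered reads as alternatives. The fits were tested on simulated data with planted changes larger than those of the measured members. This does not show how well changes as small as theirs are found. Figures used matplotlib 3.10.9.

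Coordinates and lengths are from GENCODE 29, and promoter windows from RefSeq (GRCh38.p14). The members and lists were chosen with earlier results of these data known. Named were HPSE, the members, KEAP1, and in each other list the genes passing the adjusted threshold and those with the most positive and most negative log2 fold change at a mean of at least 50. The 3 nearest profiles were named for the member with the smallest p. Precision rests on 3 libraries per group.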

Additional observations from a re-analysis of the deposited data

How the results depend on the processing

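In all 16 alternatives 0 of the 6 NRF2 target genes passed the adjusted threshold, with or without the 2-fold minimum. The number at an unadjusted p under 0.05, 2 as reported, was 1 without an intensity trend, 1 with the replicate block and 1 in DESeq2, and 3 with quantile normalization. With each library left out it was 0 to 3, with 0 without SW480-45 replicate 1, SW480-45 replicate 2 or SW480-NC replicate 2. Of the 21703 features, 3526 were under this p as reported, and 3117, 2910, 2953 and 3351 in the fits named first, in that order. With each library left out the number was 2553 to 3744 of 21636 to 21772 features. The median log2 fold change of the 6 genes stayed positive except without SW480-NC replicate 1, and ranged from −0.063 to 0.16 with each library left out. The number of genes whose groups did not overlap was then 1 to 4, against 31.3% to 37.4% of all features, since fewer libraries separate more easily. With each library left out, TXNRD1 ranged from −0.20 to 0.26 and was negative only without SW480-NC replicate 1, and KEAP1 ranged from −0.445 to 0.00, with 0.00 reached without SW480-45 replicate 3.

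In the other lists, 1 glutathione and cysteine gene passed over all features with any value, with a mean of at least 50, over Ensembl features only and in DESeq2. Of the thioredoxin and peroxide genes, 0 passed without an intensity trend and 0 with the replicate block, 3 passed in DESeq2, and 0 to 1 passed with each library left out. DESeq2, which called 3.48% of all features, also called 2 other NRF2 targets and 1 heme and iron gene. HPSE had a log2 fold change of −0.83 in each of the fits that brought it under the adjusted threshold, namely all features with any value (limma adjusted p = 0.0451), a mean of at least 50 (0.0460), Ensembl features only (0.0462) and DESeq2 (0.000948). It stayed above the threshold in the other 12, with an adjusted p of 0.0664 in edgeR, 0.126 without an intensity trend, 0.169 with the replicate block and 0.0734 to 0.188 with each library left out. CTH had 0.148 with the replicate block.

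Same-numbered libraries of the 2 groups did not deviate together over all features (r = 0.0025, −0.020 and 0.0074 across features, which are not independent replicates). Not every library correlated best with its own number. Correlations near 0 over all features cannot show that the samples are unpaired, and the labels and the paper do not say whether the numbers pair them. The replicate block reduced the features at an adjusted p under 0.05 from 174 to 12, and TXNIP had an adjusted p of 0.133 in it. This count was lowest, 11, without an intensity trend and highest, 756, in DESeq2. The depth leaves a counting error of under 3% for 5 of the 6 genes and 5.65% to 6.77% for HMOX1, against a coefficient of variation between SW480-45 libraries of 17.4% for HMOX1, 0.715% for NQO1 and 0.756% for GSR. NQO1 and GSR there lie below their counting errors of 1.10% and 1.06%.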

Other observations

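Other genes of the lists whose groups did not overlap were chosen for mention after their values were seen, and all had a limma adjusted p above 0.05. AKR1B10, an aldo-keto reductase of the intestine, had 9998, 10577 and 10271 normalized counts in SW480-45 and 12072, 13031 and 13840 in SW480-NC, for a log2 fold change of −0.33 (limma adjusted p = 0.0828). AKR1C1 had −0.31 (limma adjusted p = 0.150) and UGDH, which makes UDP-glucuronate, −0.32 (limma adjusted p = 0.119). ALDH3A1 had −0.33 (limma adjusted p = 0.266). The sign was opposite for FTL, the ferritin light chain, with 36890, 41447 and 34315 normalized counts in SW480-45 and 28356, 28968 and 34081 in SW480-NC, for a log2 fold change of 0.30 (limma adjusted p = 0.190). EPHX1, the microsomal epoxide hydrolase, had 0.22 (limma adjusted p = 0.262). Genes known as NRF2 targets thus stood on both sides, with 3 of them separated upward and 6 downward among the 23 tested (11.4% and 12% of all features).

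CAT, the catalase of peroxisomes, had 3682, 3895 and 3695 normalized counts in SW480-45 and 2796, 2998 and 3131 in SW480-NC, for a log2 fold change of 0.34 (limma adjusted p = 0.0979). TFRC, the transferrin receptor that brings iron into the cell, had 48632, 47456 and 54000 against 58505, 59666 and 58861 normalized counts, a log2 fold change of −0.24 (limma adjusted p = 0.120). With SLC40A1 also lower and FTL and BLVRA higher in SW480-45, 4 of the 8 heme and iron genes separated the groups, in both directions, against 23.4% of all features.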
